A study of Mus musculus with 9 samples.

Results

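The miRNAs described here are mmu-miR-466i-5p, mmu-miR-467f, mmu-miR-1187, mmu-miR-3082-5p and mmu-miR-574-5p, found by these names in the scanner files and written below without the species prefix. They are 5 of the 1881 mouse miRNAs on the array. They were put together as repeat-like miRNAs of the Sfmbt2 cluster and similar GU-rich miRNAs, with the question of whether they move together and differ between metformin and control arrays. Because earlier values of these arrays chose them for that pattern, the difference between metformin and control and their correlations are given as a description, with no test. High fat diet against control and metformin against high fat diet were tested, but each shares arrays with that choice, so their p-values support nothing by themselves.

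The 3 groups were male C57BL/6J mice, an inbred wild-type laboratory strain, whose livers were taken at 20 weeks of age, and each group had 3 one-colour Agilent miRNA arrays. Metformin mice ate a high fat diet (45% of kcal as fat) for 17 weeks and received metformin, a glucose-lowering drug, by stomach tube at 3 mg per kg per day for the last 5 weeks. High fat diet mice ate the same diet for 17 weeks and received saline over the last 5 weeks. Control mice ate chow for 17 weeks, with no vehicle named for them in the labels. Each array measured RNA pooled from the livers of 4 mice of its group, so replicate error here is that of pools, not of single mice.

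A miRNA guides an Argonaute protein to messenger RNAs, mostly by pairing of its seed, bases 2 to 8 from the 5′ end. The mouse gene Sfmbt2 carries in an intron a large cluster of miRNAs of the miR-297, miR-466, miR-467 and miR-669 families, rich in UG or AC repeats and best known from the placenta, where the locus is imprinted. Copies of these families and other miRNAs with UG repeats also lie elsewhere in the mouse genome. RNA rich in UG repeats is known to be bound by proteins such as CELF1, a regulator of splicing and mRNA decay.

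The mature sequences are shown because the repeat is what the miRNAs were grouped by. They were read from RefSeq on GRCm38.p6, which held 4 of the 5, and capitals mark the seed. No mature sequence of miR-466i-5p was used here.
miR-574-5p: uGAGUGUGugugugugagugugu
miR-1187: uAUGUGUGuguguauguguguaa
miR-3082-5p: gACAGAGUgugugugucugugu
miR-467f: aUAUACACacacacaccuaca

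miR-574-5p lies at chr5:64970328-64970350 on the plus strand, miR-1187 at chr5:82798964-82798986 on the minus strand, miR-3082-5p at chr17:25831406-25831427 on the minus strand, and miR-467f at chr11:69635419-69635439 on the minus strand. The gene of miR-466i lies on chromosome 13. Thus 0 of the 5 genes lie inside Sfmbt2, which is on chromosome 2, whereas 71 of the 81 annotated genes of the miR-297, miR-466, miR-467 and miR-669 families do, and the label's reference to that cluster does not hold for their positions. Mir574 overlaps the annotated spans of Fam114a1 and Tlr6, Mir467f that of Fxr2, Mir466i that of Cdk13, and Mir3082 those of Jmjd8 and Stub1. Mir1187 overlaps no other annotated gene, and exons and introns were not used here.

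The label "GU-rich" held for 3 of the 4 sequences. G and U made up 91.3% of miR-574-5p, the highest share among the 125 tested miRNAs with a sequence, 82.6% of miR-1187 and 77.3% of miR-3082-5p, against a median of 54.5%. miR-467f had 14.3%, the lowest share of the 125. Its longest run of alternating A and C was 12 bases, and the longest alternating U and G runs were 13 bases in miR-574-5p, 11 in miR-1187 and 10 in miR-3082-5p. The 3 sequences with UG repeats shared identical stretches of 10 to 12 bases with each other, and miR-467f was the reverse complement of stretches of 13, 12 and 10 bases of miR-1187, miR-574-5p and miR-3082-5p. The 4 seeds all differed, and no other mature miRNA in the table carried any of them. UGUGUGUG or GUGUGUGU, searched on the RNA strand, occurred in 9 of 1679 mature sequences (0.536%), and of these 9 the 3 described here were detected on any array. The alternating A and C motif of the same length occurred in 4 sequences (0.238%), of which miR-467f alone was detected.

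On the scanner images 6 of the 9 arrays had strips of edge columns without signal, which were left out; they took 0 to 31.1% of the spots on metformin arrays, 0 to 53.6% on high fat diet arrays and 41.1 to 43.8% on control arrays. In all, 8 arrays shared the first slide, and the third control array was alone on the second slide with its own scan. The liver marker miR-122-5p was detected on all 9 arrays. Detection of a miRNA on an array meant that a share above 0.5 of its spots was flagged well above background. The tests covered these 5 and 138 other miRNAs, each with detection throughout at least 1 group. Levels below are log2 of the background-subtracted intensity over the array's 75th percentile, and are compared between arrays for 1 miRNA at a time, never between miRNAs.

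The levels of miR-466i-5p, miR-574-5p, miR-1187 and miR-3082-5p shared one pattern over the 9 arrays. They were highest on the first and second control arrays. The third control array was as low as the metformin and high fat diet arrays. Before scaling this order held only in part. For miR-466i-5p and miR-574-5p the third high fat diet array was highest, at intensities of 326 and 100.04. The highest control intensities were 312 and 94.25. For miR-1187 and miR-3082-5p the first and second control arrays stayed highest. They had 27.99 and 27.37 for miR-1187, against 26.85 on the third high fat diet array. For miR-3082-5p these were 42.45, 43.29 and 40.68. miR-467f lay close to the lower limit of measurement and was less alike to the others. In RNA from whole liver, fewer cells of a type and less RNA per cell cannot be told apart.

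miR-466i-5p, named after the repeat-rich miR-466 family, was detected on all 9 arrays. Its log2 level was -0.04, 0.04 and -0.27 with metformin, -0.02, 0.05 and 0.01 with high fat diet and 0.65, 0.50 and -0.14 on the control arrays. The group means were -0.09 ± 0.16 for metformin, 0.02 ± 0.04 for high fat diet and 0.34 ± 0.42 for control (SD, n = 3 each), and the control arrays, the most spread, overlapped the other groups. Before scaling, the intensities were 245, 238 and 196 with metformin, 219, 290 and 326 with high fat diet and 302, 312 and 205 on the control arrays.

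miR-574-5p, whose gene is conserved in human, was detected on all 9 arrays. It had log2 levels of -1.74, -1.68 and -1.91 with metformin, -1.61, -1.56 and -1.69 with high fat diet and -1.03, -1.31 and -1.88 on the control arrays. The first and second control arrays exceeded every other array, and the third lay between the metformin arrays. The group means were -1.78 ± 0.12 for metformin, -1.62 ± 0.07 for high fat diet and -1.41 ± 0.43 for control (SD, n = 3 each).

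miR-1187 was dim but detected on all 9 arrays. Its levels were -3.55, -3.49 and -3.85 with metformin, -3.43, -3.45 and -3.59 with high fat diet and -2.78, -3.01 and -3.62 on the control arrays. As for miR-574-5p, 2 control arrays stood above all others. The group means were -3.63 ± 0.19 for metformin, -3.49 ± 0.09 for high fat diet and -3.14 ± 0.43 for control.

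miR-3082-5p was likewise detected on all 9 arrays. It had levels of -2.90, -2.89 and -3.16 with metformin, -2.85, -2.89 and -2.99 with high fat diet and -2.18, -2.35 and -3.13 on the control arrays. The third control array lay close to the lowest metformin array. The group means were -2.99 ± 0.15 for metformin, -2.91 ± 0.07 for high fat diet and -2.55 ± 0.50 for control.

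miR-467f, of the miR-467 family, was detected on 3 of 3 metformin, 1 of 3 high fat diet and 1 of 3 control arrays. It therefore entered the tests only through the metformin arrays. Its levels were -4.24, -4.40 and -4.33 on the metformin arrays. All 3 high fat diet arrays were at the floor of -4.62, the lower limit set for scaled values. On the third of them miR-467f was nevertheless detected. Its intensity there before scaling was 12.5, against 13.3, 10.9 and 11.8 on the metformin arrays. The control arrays had -3.94, -4.40 and the floor. The metformin and control arrays overlapped, with means of -4.32 in both groups, and values at the floor have no order.

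In order of group means, control was highest, high fat diet intermediate and metformin lowest for the 4 miRNAs other than miR-467f, and each neighbouring pair of groups overlapped.

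**Figure D1:**
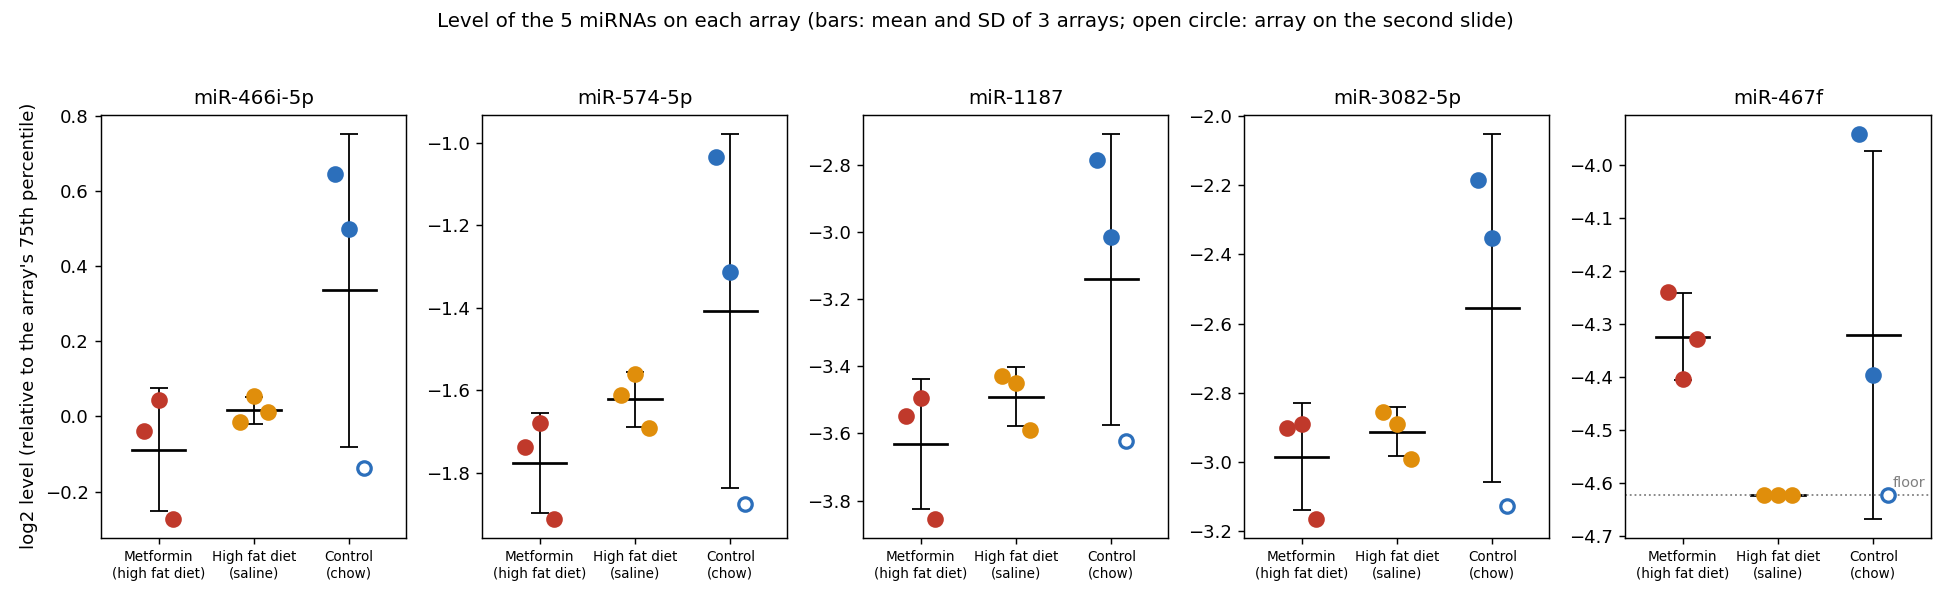
Log2 level of each miRNA on the 9 arrays (y axis, relative to the array's 75th percentile, own scale per panel) by group; points are arrays, black bars the mean and SD of 3 arrays. The first and second control arrays stand above all others in 4 panels, and the third control array (open circle, second slide) lies within or near the metformin arrays.

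The 4 miRNAs other than miR-467f rose and fell together almost array by array; this grouping of 4 was made after their values were seen. Their 6 pairwise Pearson correlations over the 9 arrays lay between 0.975 and 0.986. After each group's mean was taken out they lay again between 0.975 and 0.986, where the control arrays, with the largest SD, weigh most. Without the third control array they lay between 0.972 and 0.991. The points share array, scaling and, for the 3 of these miRNAs whose sequence was read, repeat sequence. Whether miR-466i-5p shares that repeat was not read here. Over all 10153 pairs of tested miRNAs the median correlation was 0.05. The lowest correlation among the 4 miRNAs, 0.975, was taken as a cut, so their 6 pairs reach it by construction. As a description only, 9 pairs (0.0886%) reached it, of which 6 were these. The other 3 were miR-6937-5p with miR-7047-5p, the highest of all at 0.992, miR-3963 with miR-8101 at 0.978, and miR-140-5p with miR-194-5p at 0.977. The 4 correlations of miR-467f with the others were 0.548 to 0.624, and 0.759 to 0.848 after each group's mean was taken out, with 4 of its 9 arrays at the floor.

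Each miRNA was read by a second, dimmer probe, which was detected on all 9 arrays for miR-466i-5p and miR-574-5p. The second probe correlated with the first at 0.99 for miR-466i-5p, 0.98 for miR-574-5p, 0.94 for miR-3082-5p and 0.90 for miR-1187. Both probes of a miRNA share array and scaling, so the second is not an independent reading. In miR-1187 and miR-3082-5p it was detected on 6 of 9 arrays, and in miR-467f on 0, with every array at the floor. Metformin minus control by the second probe was -0.45 for miR-466i-5p and -0.35 for miR-574-5p. No size is given for the second probes of miR-1187 and miR-3082-5p, which were at the floor on 1 metformin array each. That of miR-1187 was also at the floor on the third high fat diet array, and their correlations above include these arrays.

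**Figure D2:**
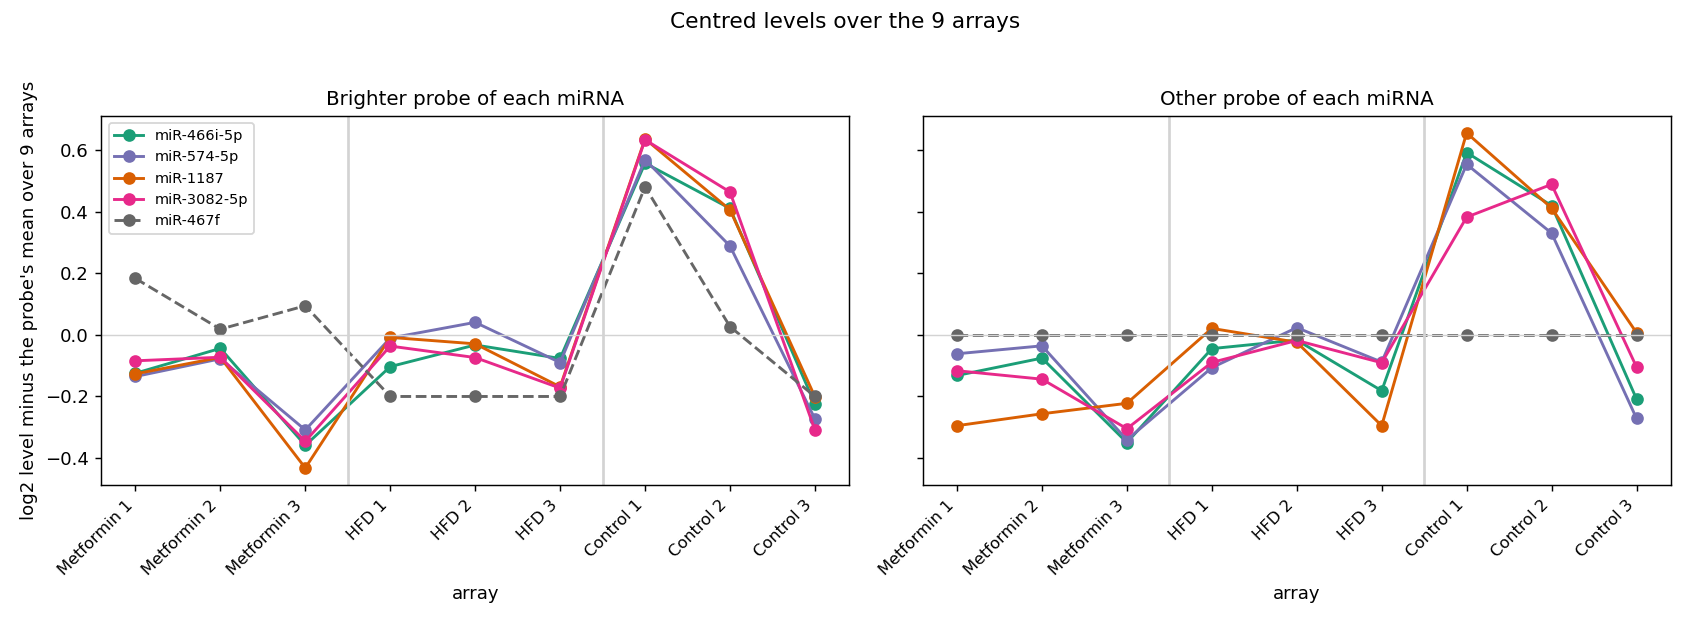
Log2 level minus the probe's mean over the 9 arrays (y axis) on each array (x axis), for the brighter (left) and the other (right) probe of each miRNA. Lines of the 4 miRNAs other than miR-467f (dashed) nearly coincide on the left, with peaks on the first and second control arrays; the other probe of miR-467f is flat at the floor.

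Metformin against control, the comparison on which the miRNAs were chosen, gave negative differences for 4 of them. The log2 difference, with its standard error from the limma model over all 9 arrays, was -0.42 (0.18) for miR-466i-5p, -0.37 (0.18) for miR-574-5p, -0.49 (0.19) for miR-1187 and -0.43 (0.20) for miR-3082-5p. For miR-467f it was -0.00 (0.15) with 1 control array at the floor, and the median over all tested miRNAs was -0.00. In this comparison 1.40% of the tested miRNAs passed an adjusted p of 0.05, and the 5 get no test. The metformin and control arrays overlapped for all 5, while they did not overlap for 25.9% of the tested miRNAs.

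The size of that difference turned on single control arrays. Without the third control array it was -0.66 for miR-466i-5p, -0.60 for miR-574-5p, -0.73 for miR-1187, -0.72 for miR-3082-5p and -0.16 for miR-467f, in a fit where 5.56% of the tested miRNAs passed. Without that array, all metformin arrays lay below all control arrays for the 4 miRNAs other than miR-467f, as they did for 19.6% of the tested miRNAs. Without the first control array it was -0.13, -0.04, -0.17 and -0.11 in the same order for the 4 miRNAs other than miR-467f. The median over all tested miRNAs in that fit was 0.12, and relative to it the 4 lay at -0.25, -0.16, -0.29 and -0.22. Against the third control array alone, their metformin mean differed by 0.05, 0.10, -0.01 and 0.14. miR-467f was at the floor on that array, so no size is given for it. Within the row of the first slide that held 2 metformin and 2 control arrays, metformin minus control was -0.69 for miR-466i-5p, -0.62 for miR-574-5p, -0.77 for miR-1187, -0.76 for miR-3082-5p and -0.20 for miR-467f.

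The 2 control arrays of the first slide exceeded the third by 0.71 for miR-466i-5p, 0.70 for miR-574-5p, 0.72 for miR-1187 and 0.86 for miR-3082-5p. Over all tested miRNAs this gap had a median of -0.08 and a range from the 5th to the 95th percentile of -0.42 to 0.53. The first and second control arrays exceeded all other 7 arrays for 4 of the 5 miRNAs and for 10 of all tested miRNAs (6.99%). The rule was taken from the pattern of these 4, which are among the 10, so both counts are a description only. The others of these 10 were miR-2137, miR-2861, miR-3102-5p, miR-3963, miR-7047-5p and miR-7118-5p. Slide, row and pool cannot be told apart for the third control array. It was alone on its slide, and lay in a different row of its slide than the first and second control arrays. All 3 control arrays had edge strips of similar size, 41.1% of the spots on the third and 43.8% and 43.5% on the first and the second, and the part of strips in the pattern was not tested.

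High fat diet against control, both read on arrays that the choice of the miRNAs shared in part, gave 0 of 5 calls, where 14.0% of the tested miRNAs passed, 9.79% as lower (limma, Benjamini-Hochberg over all tested miRNAs). The log2 difference was -0.32 for miR-466i-5p (adjusted p = 0.214), -0.21 for miR-574-5p (0.397), -0.35 for miR-1187 (0.203) and -0.36 for miR-3082-5p (0.222). miR-467f, at the floor on all high fat diet arrays, had an adjusted p of 0.172 by limma, and no size is given. The median over all tested miRNAs was 0.03.

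Without the third control array all 5 passed by limma, with differences of -0.56 (adjusted p = 0.014), -0.45 (0.029), -0.59 (0.018) and -0.64 (0.010) in the same order, and an adjusted p of 0.033 for miR-467f. The pass of miR-467f sets high fat diet arrays at the floor against control arrays, for a miRNA tested only because of the metformin arrays. In that fit 27.8% of the tested miRNAs passed, 16.0% as lower. On the first slide the high fat diet and control arrays lay in different rows. Group and row can be told apart there only through the metformin arrays, which lay in both. With the row of the slide as a block, again without the third control array, 0 of 5 passed, with limma adjusted p of 0.081 to 0.213. Over all alternatives and left-out arrays, the limma adjusted p ran from 0.014 to 0.821 for miR-466i-5p, 0.029 to 0.821 for miR-574-5p, 0.017 to 0.991 for miR-1187, 0.010 to 0.821 for miR-3082-5p and 0.033 to 0.813 for miR-467f. These p-values rest on control arrays that chose the miRNAs and support nothing by themselves.

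Metformin against high fat diet, the comparison at equal diet, showed small differences. They were -0.10 for miR-466i-5p (limma adjusted p = 0.825), -0.15 for miR-574-5p (0.715), -0.14 for miR-1187 (0.777) and -0.07 for miR-3082-5p (0.896), so 0 of 5 passed where 1.40% of the tested miRNAs did. miR-467f, detected on all metformin arrays and at the floor on the high fat diet arrays, 1 of them with detection, had a limma adjusted p of 0.435. The metformin arrays in this comparison are among those on which the miRNAs were chosen. Within the row that held 1 metformin and 3 high fat diet arrays, the differences were -0.05, -0.12, -0.06 and 0.01 in the same order.

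**Figure D3:**
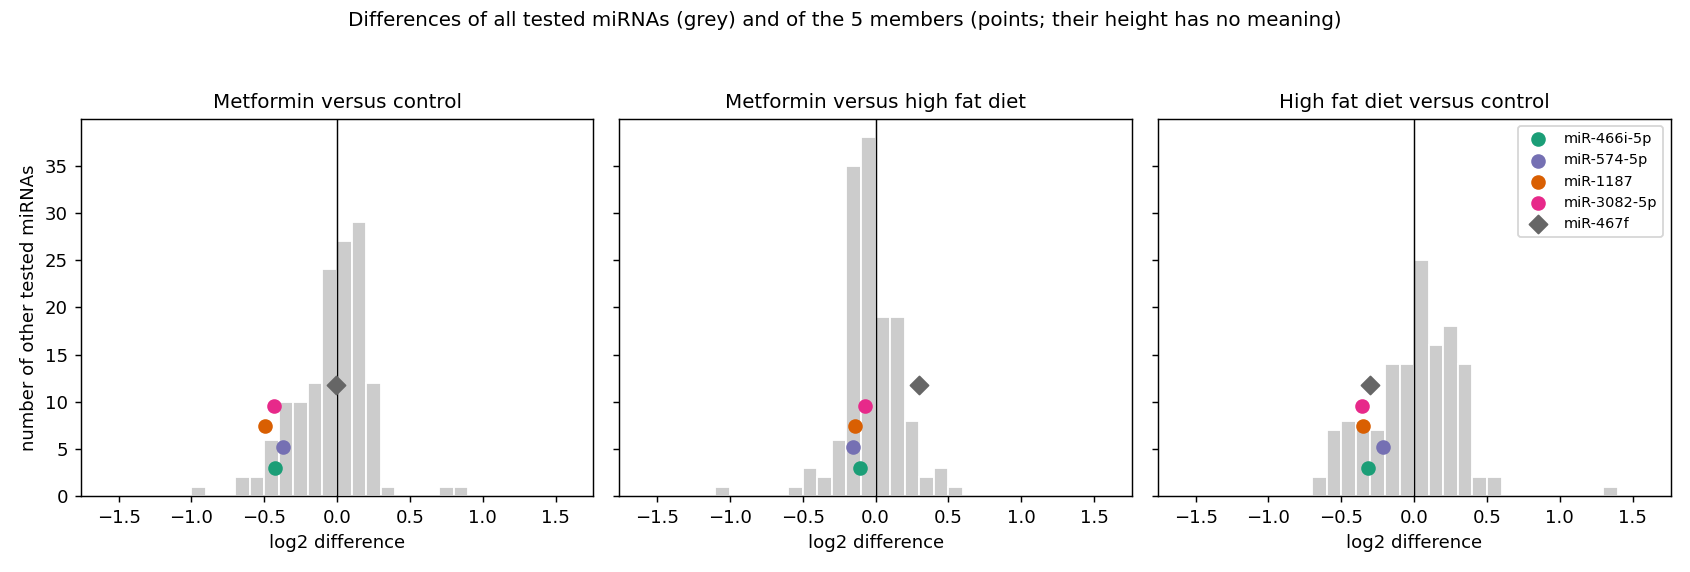
Number of other tested miRNAs (y axis) by log2 difference (x axis) in each comparison, with the 5 miRNAs as points. In all, 4 of the 5 lie left of 0 in all comparisons, between -0.49 and -0.07, inside the spread of the other miRNAs.

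**Figure D4:**
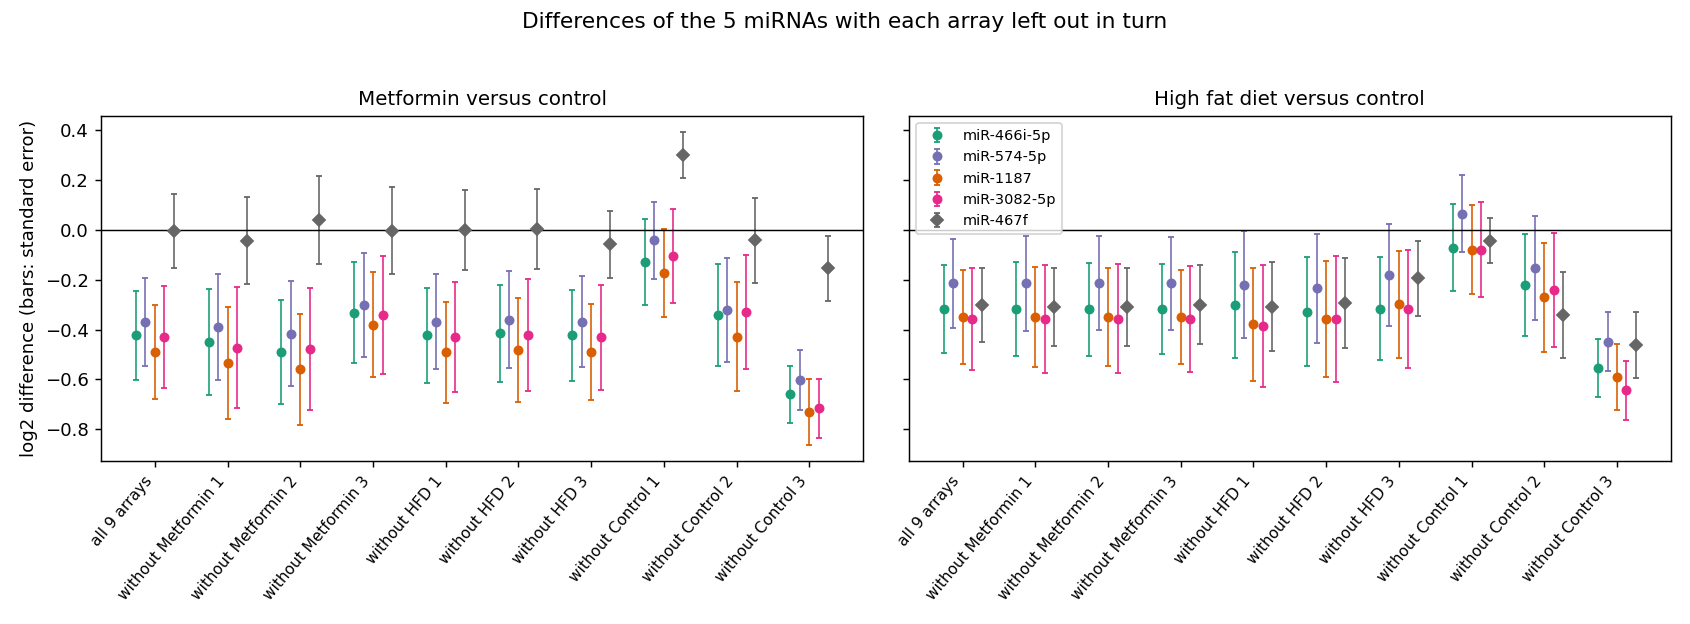
Log2 difference (y axis, bars are standard errors) of the 5 miRNAs with all arrays and with each array left out (x axis), for metformin (left) and high fat diet (right) against control. For the 4 miRNAs other than miR-467f, leaving out the first control array brings the points near 0. Leaving out the third moves them away from 0, to -0.73 at the lowest. For metformin against control without the first control array, the median of all tested miRNAs, not drawn, was 0.12.

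The other arms of the hairpins, miR-466i-3p, miR-574-3p and miR-3082-3p, were detected on 0 arrays. Of the 61 miRNAs of the miR-297, miR-466, miR-467 and miR-669 families on the array, 2 were detected on any array, miR-466i-5p and miR-467f. No further family member could therefore be set beside them.

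Among the 138 other tested miRNAs, those whose levels over the 9 arrays followed the mean of the 5 most closely were miR-7047-5p (Pearson r 0.846), miR-7686-5p (0.829), miR-3470a (0.827), miR-6937-5p (0.814), miR-2861 (0.777) and miR-3960 (0.765). The most opposed were miR-361-5p (-0.974), miR-148a-3p (-0.871) and miR-27b-3p (-0.850), and 44 of the 138 had a correlation above 0. miR-361-5p had -3.02, -2.99 and -2.87 with metformin, -2.98, -2.94 and -2.94 with high fat diet and -3.22, -3.10 and -2.87 on the control arrays.

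Markers of liver cell types were set beside the pattern, and their part in it was not tested. Of the 3 hepatocyte markers all were detected on all 9 arrays, and the log2 of their summed level was 6.72 to 6.89 on metformin, 6.60 to 6.76 on high fat diet and 6.69 to 6.86 on control arrays; miR-122-5p, miR-192-5p and miR-194-5p correlated with the mean of the 5 at -0.24, -0.82 and -0.83. The erythroid marker miR-451a was detected on all arrays and miR-144-3p on none; their sum was -1.73 to -1.54 on metformin, -0.88 to -0.44 on high fat diet and -1.40 to -0.07 on control arrays. Of 4 leukocyte markers, miR-142a-5p and miR-150-5p were detected on none, and the sum was -1.63 to -1.48 on metformin, -1.54 to -1.31 on high fat diet and -1.58 to -1.35 on control arrays. Of 2 endothelial markers, miR-126a-5p was detected on none, and the sum was 1.45 to 1.73 on metformin, 1.67 to 1.69 on high fat diet and 1.41 to 1.57 on control arrays. Of 5 stellate and mesenchymal markers, miR-143-3p and miR-145a-5p were detected on none and miR-214-3p on 1 array. Their sum was -1.34 to -1.29 on metformin, -1.25 to -1.18 on high fat diet and -1.44 to -1.39 on control arrays. miR-214-3p and every marker detected on no array entered these sums at the floor of -4.62, so the sums are not totals of measured signal alone. The other tested markers correlated with the mean of the 5 as follows: miR-451a 0.18, miR-223-3p -0.36, miR-142a-3p -0.11, miR-126a-3p -0.62, miR-199a-3p -0.45 and miR-199a-5p -0.64. The median over the 138 other tested miRNAs was -0.31, and the 3 lowest were -0.97, -0.87 and -0.85. miR-192-5p and miR-194-5p lay near these lowest values, while miR-122-5p lay near the median.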

How the data were processed

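Per the file headers, the deposited scanner files hold spot intensity from Feature Extraction 11.5.1.1, background-subtracted and not scaled between arrays; the submitters' processing notes name version 10.7 of Agilent Feature Extraction, and which one applies is unknown. The authors' deposited table holds log2 values, equal to Feature Extraction's log2 total signal after an unstated shift per array, apart from 0 to 6 of the 1881 miRNAs on each array; its column medians ran from -5.67 to -4.03.

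Edge strips without signal were left out, each probe was the median of its remaining spots, and 425 of 4415 probes with under 3 spots on any array were dropped. Scaling used each array's 75th percentile over 187 probes detected on all arrays (intensities of 193 to 323), then a floor and log2. A miRNA was its brightest probe. limma 3.58.1 in R 4.3.3 fitted 3 group means, with Benjamini-Hochberg adjustment and a threshold of 0.05. Steps were tested on simulated data. The number of arrays limits the precision.

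Alternatives covered spots, probe summary, scaling, background correction, filters, the deposited table, blocks and single arrays. The normexp alternative (offset 50) used median spot signals because the files hold no mean signal column. Correlations between the deviations of same-numbered arrays had both signs (-0.24 to 0.43), and replicate numbers were not taken as pairs in the main fit.

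The miRNAs named were the 5, their other arms, detected members of their families or of the UG motif list, the 6 most and 3 least alike in pattern, and the markers; the further miRNAs of the highest pairs and of the 10 on the control arrays were chosen after their values were seen. All lists and the strip-free reading were chosen with earlier results of these data known. Headers name mm9, and sequence positions are RefSeq's on GRCm38.p6.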

Additional observations from a re-analysis of the deposited data

How the results depend on the processing

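The median difference of the 5 miRNAs was -0.42 for metformin against control, -0.10 for metformin against high fat diet and -0.32 for high fat diet against control. With the 75th percentile over all probes it was 0.39, 0.17 and 0.19 in the same order, while the median of all tested miRNAs moved to 0.80, 0.21 and 0.56. With the row block it was -0.69 for metformin and -0.63 for high fat diet against control. With all spots of the first slide only, an alternative chosen after seeing the data, it was -0.73 for metformin and -0.71 for high fat diet against control, over the 4 miRNAs tested there. Leaving out single arrays gave -0.66 to -0.11 for metformin against control, -0.17 to -0.01 for metformin against high fat diet and -0.56 to -0.07 for high fat diet against control. For high fat diet against control, members passing were 0, but 1 with normexp, 5 with the slide block, a fit without the third control array, and 0 to 5 without single arrays; for metformin against high fat diet they were 0 under the 12 alternatives that gave this count and without any single array.

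Several differences changed sign. With the 75th percentile over all probes, metformin against control was 0.39 for miR-466i-5p, 0.32 for miR-1187, 0.38 for miR-3082-5p, 0.44 for miR-574-5p and 0.58 for miR-467f, metformin against high fat diet was 0.17 for miR-466i-5p, 0.13 for miR-1187, 0.20 for miR-3082-5p and 0.12 for miR-574-5p, and high fat diet against control was 0.22, 0.19, 0.18 and 0.32 in the same order. Metformin against high fat diet was 0.12 for miR-466i-5p with all spots, 0.041 for miR-1187 and 0.020 for miR-3082-5p with normexp, 0.010 for miR-3082-5p with the row block, 0.072 for miR-574-5p with quantile normalization and -0.091 for miR-467f with the mean of remaining spots. With the deposited table, metformin against control was 2.32 for miR-467f, and high fat diet against control was 0.96 for miR-467f and 0.061 for miR-1187. Without single arrays, metformin against high fat diet was -0.12 to 0.016 for miR-3082-5p, and high fat diet against control -0.45 to 0.065 for miR-574-5p. The cause was not tested, except that the percentile over all probes shifts all miRNAs.

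Over all tested miRNAs, 2 passed for metformin against control, and 0 with all spots, normexp or the deposited table (15, 41 and 10 at an unadjusted p under 0.05, limma), 98 with the percentile over all probes, 1 with no filter, 7 with the slide block, 5 with the row block and 1 to 8 without single arrays. For metformin against high fat diet, 2 passed, against 1 with quantile normalization or the slide block, 0 to 3 without single arrays, and 0 with all spots, the percentile over all probes, normexp, no filter, the mean over probes, the deposited table, the replicate block or the row block (1 to 19 at an unadjusted p under 0.05, limma). For high fat diet against control, 20 passed, against 9 with all spots, 1 with the percentile over all probes, 0 with the deposited table or the row block (12 and 30 unadjusted), 39 with the slide block and 6 to 40 without single arrays. The replicate block gave 22, 3 and 0 for high fat diet against control, metformin against control and metformin against high fat diet, and left 0 of the 5 miRNAs passing. The low signal of miR-467f, at the floor on 4 arrays, limits what can be read from it.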
